A study of Mus musculus with 4 samples.

Results

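The 10 genes described here are markers of tendon and of muscle connective tissue: Scx, Mkx, Tnmd, Col12a1, Col14a1, Osr1, Osr2, Dcn, Tnc and Kera. They were picked by symbol out of 25239 genes in a table of read counts, all 10 were present, and 9 passed a filter on low counts that 14610 genes passed. RNA had been sequenced from hindlimb bud cells of FVB mouse embryos at embryonic day 11.5, with 2 libraries from anterior cells positive for the red fluorescent protein mCherry and 2 from central cells negative for it. Every embryo had a genotype given as wild-type and carried the reporter H11 hsp68-hZRS(404G>A)-mCherry, a construct at the H11 locus that joins the human ZRS limb enhancer, altered at 1 base, to the hsp68 promoter and mCherry. Position in the bud and reporter status differ together between the groups and cannot be told apart. The anterior population is limited to the cells sorted as positive for the reporter. The labels do not say how many embryos entered each library, so the spread between libraries may be technical in part.

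Limb tendons and muscle connective tissue both arise from lateral plate mesenchyme, whereas limb muscle cells migrate in from the somites. Tendon progenitors switch on the transcription factor Scx, later add Mkx, and then make a matrix of fibrillar collagens coated by fibril-associated collagens and small leucine-rich proteoglycans, with the membrane protein Tnmd as a late marker. The zinc finger factors Osr1 and Osr2 mark the irregular connective tissue that wraps and patterns muscle.

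Library totals lay between 30080925 and 33257383 counts. Replicates differed by more than counting noise, so each library was counted as 1 sample. Levels are counts per 1 M counts (CPM) after scaling of the libraries by the TMM method, given as mean ± SD over 2 libraries. A difference is the log2 ratio of anterior to central with its standard error (SE), so that negative values are lower in anterior cells. A floor of 3 counts stands for 0.0899 to 0.102 CPM, and covers counting error only. The members were chosen with this contrast known, so their differences are given as a description without a test.

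The central cells held more RNA of most of these genes. Of the 9 members that passed the filter, 8 were lower in both anterior libraries than in either central library, and Mkx overlapped. Among all 14610 genes tested, 32.6% were lower without overlap and 12.3% were called lower (edgeR quasi-likelihood test, Benjamini-Hochberg adjusted p-value below 0.05). Nothing is read from the members' count because the contrast chose them. Summed over the 10 genes, the level was 40.2 and 34.9 CPM in anterior libraries, and 385 and 367 CPM in central libraries. In RNA from whole sorted populations, fewer cells of a type and less RNA per cell cannot be told apart.

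**Figure D1:**
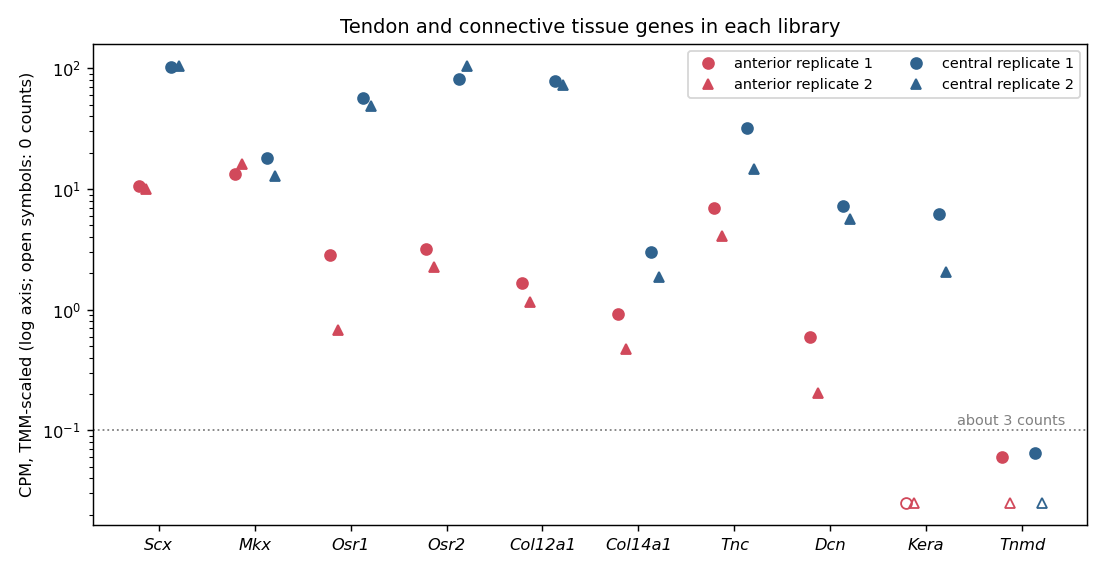
TMM-scaled CPM (log axis) of each member in each of the 4 libraries, with anterior libraries in red, central libraries in blue, and open symbols for 0 counts. Scx, Osr1, Osr2 and Col12a1 lie between 48.8 and 105 CPM in central cells and between 0.682 and 10.6 CPM in anterior cells, whereas Mkx lies between 12.9 and 18.1 CPM in all 4 libraries.

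Scx (ENSMUSG00000034161.8, chromosome 15, 76457452 to 76459458, plus strand, GRCm38) encodes the basic helix-loop-helix factor that marks tendon progenitors. Scx counts numbered 353 and 295 in anterior cells, and 3137 and 3356 in central cells. These counts correspond to 10.6 and 10.1 CPM against 102 and 104 CPM. Both anterior libraries were low and both central ones high, with replicates within 1.05-fold of each other. The log2 difference was -3.31 ± 0.09 (SE), a 9.95-fold higher level in central cells. Scx was thus lower in anterior cells but far above the floor there. The gene lies inside the body of Bop1, which is on the opposite strand and shares no exon base with it, and whether the counting used strand is not given in the sources used here. Bop1, a ribosome biogenesis gene, was at 108 and 107 CPM in anterior and 86.0 and 96.6 CPM in central cells (log2 difference 0.24 ± 0.08 SE, edgeR adjusted p-value 0.0591).

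Mkx (ENSMUSG00000061013.6) encodes a homeodomain factor of the TALE class that acts in tendon collagen production. Mkx counts numbered 443 and 470 in anterior cells, and 558 and 416 in central cells. The levels of 13.3 and 16.0 CPM lay inside the central range of 12.9 to 18.1 CPM. The log2 difference was -0.08 ± 0.19 (SE), and it was 0.0534 without anterior replicate 1 and 0.190 without central replicate 1. The anterior and central libraries overlapped, unlike those of Scx, and could not be separated at this spread. Per exon length the level of Scx was 1.63 and 1.28 times that of Mkx in anterior libraries, and 11.5 and 16.5 times in central libraries.

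Tnmd (ENSMUSG00000031250.8, chromosome X, 133850980 to 133865577, plus strand) encodes tenomodulin, the membrane glycoprotein of differentiated tendon cells. Tnmd counts numbered 2 and 0 in anterior cells, and 2 and 0 in central cells. No library exceeded the floor of 3 counts, so no fold is given. The central libraries with 3137 and 3356 counts of Scx therefore had at most 2 counts of Tnmd, below what this depth can resolve.

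Osr1 (ENSMUSG00000048387.8, chromosome 12, 9570116 to 9581500, plus strand) encodes an odd-skipped zinc finger factor of muscle connective tissue progenitors. Osr1 counts numbered 95 and 20 in anterior cells, and 1765 and 1581 in central cells. In CPM these were 2.85 and 0.682 against 57.3 and 48.8. The groups were far apart, and the anterior replicates themselves differed 4.18-fold, where the median gene tested differed 1.09-fold. Its log2 difference was -4.87 ± 0.37 (SE), 29.2-fold higher in central cells, and it was -6.27 without anterior replicate 1 and -4.21 without anterior replicate 2.

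Osr2 (ENSMUSG00000022330.5, chromosome 15, 35296098 to 35303305, plus strand), the other odd-skipped factor, is also known from joints and connective tissue. Osr2 counts numbered 107 and 66 in anterior cells, and 2494 and 3404 in central cells, or 3.21 and 2.25 against 81.0 and 105 CPM. Its log2 difference was -5.08 ± 0.19 (SE), 33.8-fold higher in central cells, with no overlap. Per exon length the ratio of Osr2 to Osr1 was 0.642 and 1.88 in anterior libraries, and 0.806 and 1.23 in central libraries. These ratios overlapped, so by the union of exons neither factor was the more abundant in both replicates of a population. The order depends on the length used. By the longest transcript the central means were 33.7 CPM per kilobase for Osr2 and 26.4 for Osr1.

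Col12a1 (ENSMUSG00000032332.17, chromosome 9, 79598991 to 79718831, minus strand) encodes the chain of type XII collagen, which sits on the surface of type I collagen fibrils. Col12a1 counts numbered 56 and 34 in anterior cells, and 2414 and 2349 in central cells. The levels were 1.68 and 1.16 CPM against 78.4 and 72.6 CPM, with a log2 difference of -5.72 ± 0.15 (SE). This 52.6-fold difference was the widest among the members whose anterior libraries had counts.

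Col14a1 (ENSMUSG00000022371.16, chromosome 15, 55307750 to 55520803, plus strand) encodes the related type XIV collagen. Col14a1 counts numbered 31 and 14 in anterior cells, and 92 and 61 in central cells, or 0.929 and 0.477 against 2.99 and 1.88 CPM. The log2 difference was -1.78 ± 0.49 (SE), so Col14a1 was scarce in both populations and its difference smaller and less precise. Per exon length Col12a1 was 12.1 and 17.7 times as abundant as Col14a1 in central cells, and 0.832 and 1.12 times in anterior cells.

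Tnc (ENSMUSG00000028364.15, chromosome 4, 63959785 to 64047015, minus strand) encodes tenascin-C, a large glycoprotein of developing tendon and perichondrium. Tnc counts numbered 233 and 119 in anterior cells, and 992 and 478 in central cells. The levels were 6.99 and 4.06 CPM against 32.2 and 14.8 CPM. The groups did not overlap, although the central replicates differed 2.18-fold. Tnc thus had a log2 difference of -2.08 ± 0.37 (SE), 4.23-fold higher in central cells, and it was -1.41 without central replicate 1.

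Dcn (ENSMUSG00000019929.16, chromosome 10, 97479609 to 97518143, plus strand) encodes decorin, a small leucine-rich proteoglycan that binds collagen fibrils. Dcn counts numbered 20 and 6 in anterior cells, and 224 and 184 in central cells, or 0.600 and 0.205 against 7.27 and 5.68 CPM. Its log2 difference was -3.97 ± 0.45 (SE), 15.7-fold higher in central cells, and it was -4.95 without anterior replicate 1. Dcn was low even in central cells, and its anterior values rest on few reads.

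Kera (ENSMUSG00000019932.8, chromosome 10, 97606879 to 97613692, plus strand) encodes keratocan, a proteoglycan of the same family known from the cornea and also found in tendon. Kera had 0 counts in each anterior library, while central libraries held 191 and 66, or 6.20 and 2.04 CPM. Central cells were at least 42.9-fold higher, taking 3 counts in each anterior library as the floor. The bound was 21.2-fold without central replicate 1, and 21.4-fold if the floor is 3 fragments of 2 counts each, since both mates of a pair appear to have been counted. Kera was the member with no count in a whole population, and its central replicates differed 3.04-fold.

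**Figure D2:**
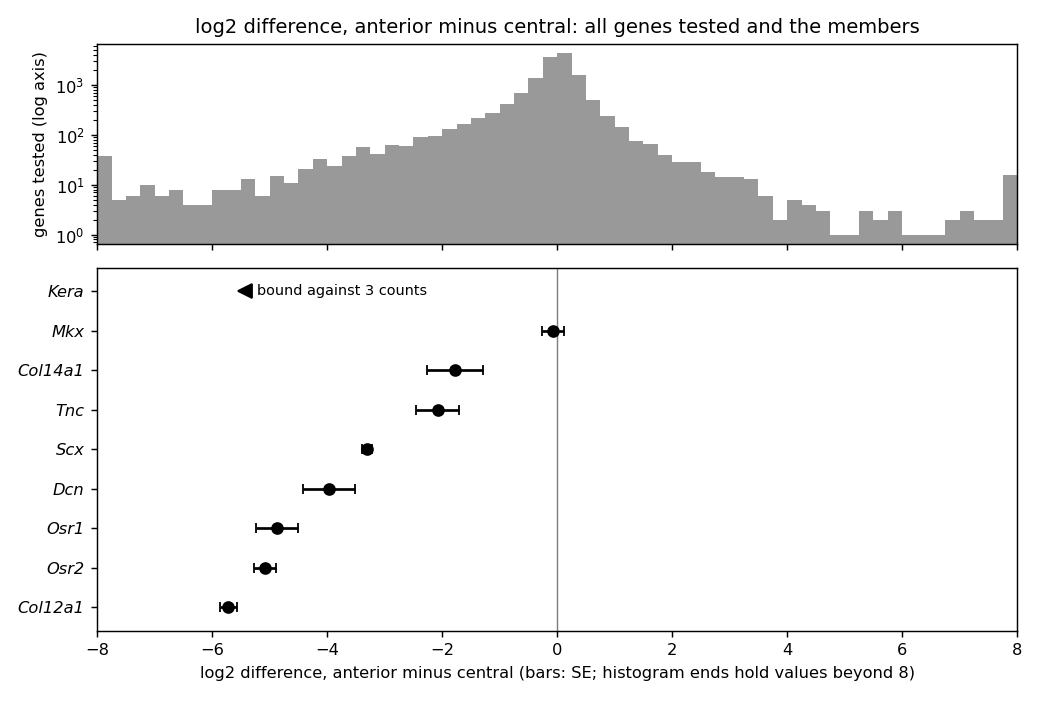
Upper panel, the distribution of the log2 difference (anterior minus central) over the 14610 genes tested, with a log count axis; lower panel, the log2 difference of each member with counts in all libraries (bars are SE) and the bound for Kera. Col12a1 lies at -5.72, Kera at -5.42 or beyond and Osr2 at -5.08, and Mkx lies near 0 at -0.08.

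Compared by level per kilobase of exon, the central order was led by Scx at 51.2 ± 0.640 CPM per kilobase. Osr1 and Osr2 followed at 25.7 ± 2.90 and 25.7 ± 4.72, with overlapping libraries. Col12a1 came next at 4.96 ± 0.270, then Mkx at 3.78 ± 0.910, Tnc at 3.02 ± 1.59, Kera at 1.81 ± 1.29 and Dcn at 1.11 ± 0.192. Mkx and Tnc overlapped, as did Tnc and Kera, and Kera and Dcn, so these neighbours are not ordered beyond their spread. Col14a1 at 0.347 ± 0.111 and Tnmd at 0.0240 ± 0.0339 were last. The 3 transcription factors at the top were therefore well above each of the matrix genes in central cells, per length.

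In the anterior order Scx was also first, at 5.14 ± 0.186 CPM per kilobase, but Mkx was second at 3.58 ± 0.473 and separate from it. Osr1 (0.854 ± 0.742), Osr2 (0.753 ± 0.187) and Tnc (0.710 ± 0.267) overlapped, and Col14a1, Col12a1 and Dcn were at 0.1, 0.0932 and 0.0689. By mean level Mkx thus went from the fifth place in central cells, where it overlapped Tnc, to the second in anterior cells. Its own level stayed in the same range. As a share of the summed CPM of the 10 genes, Scx made up 26.3% and 28.8% in anterior and 26.4% and 28.2% in central cells, whereas Mkx made up 33.1% and 45.9% against 4.70% and 3.50%.

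**Figure D3:**
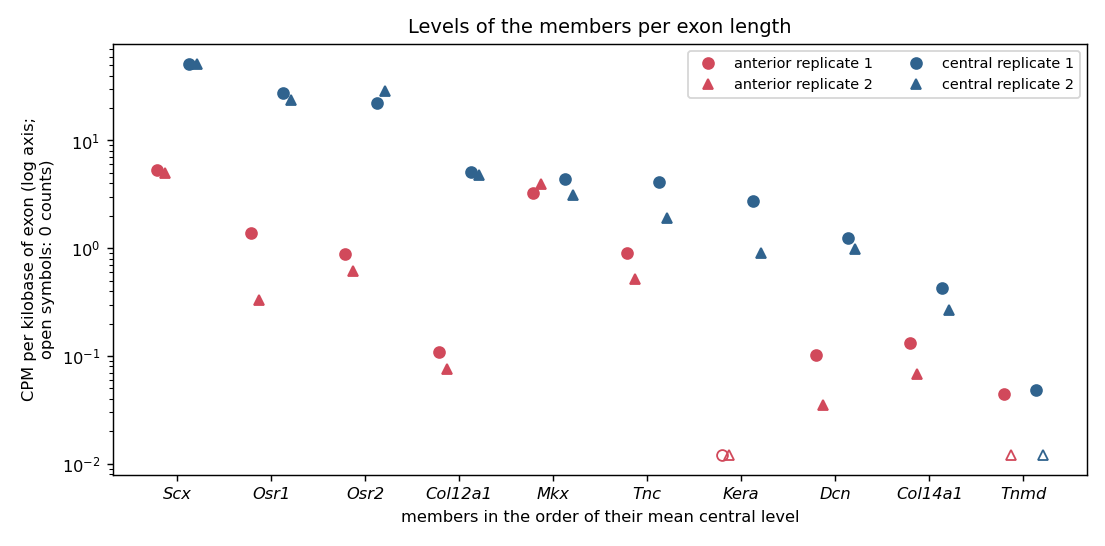
CPM per kilobase of exon (log axis) for each member in each library, ordered by the central mean, with open symbols for 0 counts. Scx leads in both populations, at 51.2 in central and 5.14 in anterior cells, and Mkx is the member whose red and blue symbols fall together above 3 CPM per kilobase.

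The 5 genes whose pattern was most like that of Scx, among 10604 genes with a mean of at least 5 CPM, were Cxcl14, Fgf18, Meox2, Itga4 and Rspo2. Likeness was the root mean square difference in log2 CPM, centred on each gene's mean, over the 4 libraries. The values were 0.0717 for Cxcl14, a chemokine, 0.103 for Fgf18, a fibroblast growth factor, and 0.112 for Meox2, a homeobox factor of somite and limb muscle precursors. They were 0.174 for Itga4, an integrin chain, and 0.176 for Rspo2, a secreted enhancer of Wnt signalling. Cxcl14 measured 8.48 ± 0.608 CPM in anterior and 78.0 ± 4.75 CPM in central cells. No member came as close as these. Of those above 5 CPM, Tnc ranked at 132, Osr2 at 172, Osr1 at 348, Col12a1 at 409 and Mkx at 4193. Dcn, Col14a1 and Kera, below that level and not ranked, differed from Scx by 0.556, 0.87 and 1.38, against 0.8 for Tnc. With 4 libraries, such likeness mostly restates the size of the difference between the populations.

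Scx and related factors bind the E-box CANNTG, and the promoter windows that RefSeq (GRCm38.p6) gave for the members were searched for it over the 250 bases before the start site. Windows were matched for 3 of 10 members, Kera, Tnc and Tnmd. The sequences of Tnc, whose level differed between the populations, and of Tnmd, which did not exceed 2 counts, are shown to set a window with E-boxes beside one without. They are given 5′ to 3′ on the gene's strand, with each CANNTG in capitals and without bases that the annotation places in an exon. The Tnc window is chr4:64047016-64047265 (minus strand) and the Tnmd window chrX:133850758-133850979 (plus strand).
Tnc: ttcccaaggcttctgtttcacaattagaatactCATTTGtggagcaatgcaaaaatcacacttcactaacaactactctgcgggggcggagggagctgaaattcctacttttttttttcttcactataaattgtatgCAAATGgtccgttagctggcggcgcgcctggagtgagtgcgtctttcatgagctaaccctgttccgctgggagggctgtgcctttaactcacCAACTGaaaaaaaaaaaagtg
Tnmd: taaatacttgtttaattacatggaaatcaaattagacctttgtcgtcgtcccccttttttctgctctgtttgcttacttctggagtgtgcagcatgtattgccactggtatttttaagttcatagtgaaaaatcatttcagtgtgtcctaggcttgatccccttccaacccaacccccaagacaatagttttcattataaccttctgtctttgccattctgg
The Tnc window held 3 matches, beginning at -217, -113 and -21 relative to the start. RefSeq lists a second Tnc start, whose window (chr4:64046937-64047186) overlaps this one and held 2 matches, at -192 and -100. The windows of Kera and Tnmd held 0 matches. The Kera window (chr10:97606955-97607204) lies inside the gene as annotated, which starts at 97606879, so it is not upstream of that start. Among 32851 windows of this length, 66.2% held at least 1 CANNTG, which reads the same on both strands. The narrower forms CATCTG or CAGATG (14.4% of all windows), CACCTG or CAGGTG (17.2%) and CATATG (3.46%) were not found in any of the members' windows. A match describes the letters only.

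The wider tendon programme was followed through lists of related genes, which were also drawn up with earlier results known. Their counts and medians are therefore given as a description. Among 17 regulators of tendon formation, 16 were tested, 10 were called lower in anterior cells and 0 higher by edgeR, where 12.3% and 10.7% of all genes tested were called lower and higher. At an unadjusted p-value under 0.05 the count higher was also 0, as it was with the DESeq2 Wald test, and without central replicate 1 it was 1. The list's median log2 difference was -1.36, against -0.00866 for all genes tested. Six2, a homeobox factor found in tendon, and the cofactors Eya1 and Eya2 all fell. Eya2 measured 0.894 ± 0.348 CPM in anterior and 17.6 ± 1.87 in central cells (log2 difference -4.28 ± 0.27 SE, edgeR adjusted p-value 1.50e-05). Six2 measured 2.97 ± 1.31 against 35.8 ± 12 CPM (log2 difference -3.58 ± 0.31 SE, edgeR adjusted p-value 9.02e-05). Eya1 differed by -2.88 on the log2 scale.

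Tgfb2, a transforming growth factor ligand, measured 9.85 ± 2.56 CPM against 62.8 ± 28.1 (log2 difference -2.67 ± 0.30 SE, edgeR adjusted p-value 0.000374). Tgfb3, another ligand of this family, was not called, at 39.3 ± 5.34 and 46.2 ± 1.75 CPM (edgeR adjusted p-value 0.161). The receptor Tgfbr2 fell from 25.6 ± 4.42 to 14.6 ± 1.85 CPM (log2 difference -0.81). Egr1, a zinc finger factor that promotes tendon collagens and also responds quickly to handling of cells, was at 34.2 ± 7.46 against 109 ± 53.3 CPM (log2 difference -1.68 ± 0.29 SE, edgeR adjusted p-value 0.00399). Sox9, shared by cartilage and the progenitors of tendon attachments, fell by 1.27 on the log2 scale. Smad3, which carries the transforming growth factor signal, was not called, at 184 ± 3.08 and 179 ± 3.98 CPM (edgeR adjusted p-value 0.735). Nfatc4 was not called either (log2 difference -0.15, edgeR adjusted p-value 0.140). Of relatives of Scx in the helix-loop-helix family, Tcf15 fell from 16.0 ± 0.519 to 4.59 ± 1.32 CPM (log2 difference -1.81, edgeR adjusted p-value 0.000595), while Twist1 rose from 265 ± 23.6 to 470 ± 15.6 CPM (log2 difference 0.83, adjusted p-value 0.000116).

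Of 22 tendon matrix genes, 21 were tested, 14 were called lower and 2 higher, with a median log2 difference of -1.03. Of all genes tested, 12.3% were called lower and 10.7% higher, with a median of -0.00866. Without either anterior replicate 1 or anterior replicate 2, the count higher was 1, which was Bgn, described below. Lum, the proteoglycan lumican, fell most among those with at least 5 CPM, from 29.0 ± 7.27 to 1.91 ± 0.00702 CPM (log2 difference -3.92 ± 0.22 SE, edgeR adjusted p-value 7.76e-06). Among the fibrillar collagens, Col3a1 fell from 973 ± 43.4 to 303 ± 33.9 CPM (log2 difference -1.69 ± 0.09 SE) and Col1a1 from 310 ± 27.6 to 162 ± 14.3 CPM (log2 difference -0.94 ± 0.09 SE). Col5a2 rose, from 200 ± 13.3 to 249 ± 0.157 CPM (log2 difference 0.32 ± 0.07 SE, edgeR adjusted p-value 0.0111). Col1a2 was not called at 812 ± 92.9 against 939 ± 35.8 CPM (edgeR adjusted p-value 0.11). Fbn1 and Eln, of microfibrils and elastic fibres, fell by 1.44 and 1.25 on the log2 scale. Fbn2 was not called (log2 difference -0.19, edgeR adjusted p-value 0.0524), and was called in 7 of 12 alternatives, with adjusted p-values from 0.0185 with the DESeq2 Wald test to 0.307 without anterior replicate 1. Fibrillar collagen RNA was thus abundant in both populations, and the differences of Col1a1, Col1a2 and Col3a1 were smaller than those of Scx and Col12a1.

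Proteoglycans of the family of Dcn and Kera were examined without those members. Of 13 listed genes 9 were tested, 5 were called lower and 1 higher. Lum and Fmod among the lower, and Bgn, the 1 higher, were also counted in the tendon matrix list. The shares of all genes tested were 12.3% lower and 10.7% higher. Fmod, fibromodulin, measured 0.248 ± 0.158 against 2.92 ± 1.38 CPM (log2 difference -3.51 ± 0.60 SE, edgeR adjusted p-value 0.00384). Bgn, biglycan, which acts beside decorin in tendon, went the opposite way and rose from 22.4 ± 0.397 to 50.2 ± 1.60 CPM (log2 difference 1.16 ± 0.09 SE, edgeR adjusted p-value 4.83e-05). Tsku was not called, at 27.4 ± 1.13 and 29.9 ± 0.740 CPM (edgeR adjusted p-value 0.406), and neither was Chad (adjusted p-value 0.392). With a mean count of at least 50 required, which removes the scarcer of these genes, 2 were called lower.

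The fibril-associated collagens other than Col12a1 and Col14a1 numbered 8, of which 7 were tested and 3 called lower. Those 3 were Col9a1, Col9a2 and Col9a3, the chains of cartilage type IX collagen, with log2 differences of -1.67, -3.58 and -2.08. Col16a1 and Col22a1, the latter known from muscle-tendon junctions, were not called (edgeR adjusted p-values 0.275 and 0.436). Of the tenascins other than Tnc, Tnr had 0 counts in every library and neither Tnxb nor Tnn passed the filter, so Tnc was the tenascin measured in these cells. Receptors for tenascin and fibronectin were mixed, with 4 called higher and 3 lower of 9 tested and a median log2 difference of 0.0291. For these 2 lists too, the shares of all genes tested were 12.3% lower and 10.7% higher. Without anterior replicate 2, 2 of the receptors were called higher. Itga8 rose from 24.6 ± 0.330 to 57.2 ± 2.44 CPM (log2 difference 1.22 ± 0.09 SE, edgeR adjusted p-value 3.31e-05), and Itgav and Itgb1 rose by 0.62 and 0.40 on the log2 scale. Without anterior replicate 2 the call of Itgb1 was lost (edgeR adjusted p-value 0.0551). Itga9, a tenascin-C receptor chain, fell by 0.47 on the log2 scale. Itga5 and Sdc4 were not called (edgeR adjusted p-values 0.821 and 0.101).

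Muscle connective tissue genes formed another such list. Of 19 listed, 16 were tested, 12 were called lower and 0 higher by edgeR, with a median log2 difference of -1.46. Among all genes tested 12.3% were called lower and 10.7% higher, with a median of -0.00866. The list's count higher was also 0 with the DESeq2 Wald test and at an unadjusted p-value under 0.05. Hgf, the growth factor that draws muscle precursors into the limb, measured 0.840 ± 0.127 against 30.8 ± 10.2 CPM (log2 difference -5.18 ± 0.29 SE, edgeR adjusted p-value 8.04e-06). Hic1, a zinc finger factor of mesenchymal progenitors, measured 1.26 ± 0.340 against 35.3 ± 12.2 CPM (log2 difference -4.82 ± 0.30 SE, edgeR adjusted p-value 1.22e-05). Cxcl12, a chemokine of muscle connective tissue, differed by -4.08 and Dlk1 by -3 on the log2 scale. Pdgfra, the receptor that marks connective tissue progenitors, fell from 582 ± 15.4 to 258 ± 27.7 CPM (log2 difference -1.17 ± 0.08 SE). Tcf7l2, a factor expressed in muscle connective tissue, was lower by 0.51 in log2 units (adjusted p-value 0.00582 by edgeR). Tcf4, a separate gene counted among the 12 called lower, had a log2 difference of -0.43 (adjusted p-value 0.00452 by edgeR). Whether Tcf4 marks this tissue was not tested. The call of Tcf4 was lost without anterior replicate 2 (edgeR adjusted p-value 0.0512). Tbx4 was not called (edgeR adjusted p-value 0.223). Tbx3 was not called either (log2 difference -0.69, edgeR adjusted p-value 0.0810), and was called in 5 of 12 alternatives, with adjusted p-values from 5.79e-06 without anterior replicate 1 to 0.351 with the DESeq2 Wald test, and 0.0127 with replicate number as a block.

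**Figure D4:**
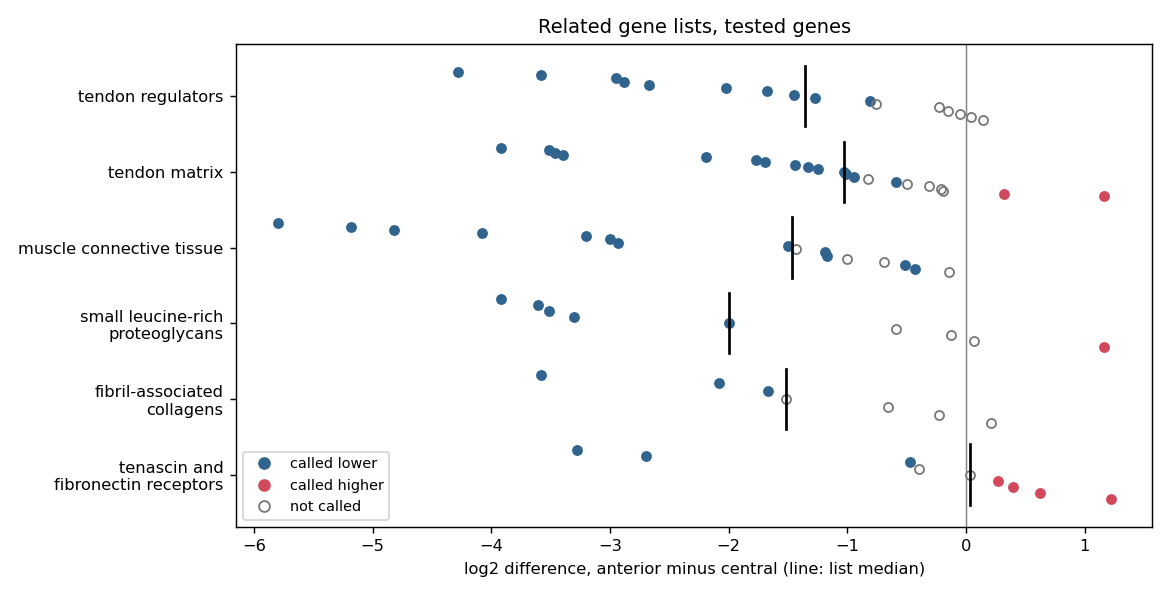
The log2 difference (anterior minus central) of each tested gene in 6 related lists, coloured by the edgeR call at an adjusted p-value under 0.05, with a line at each list's median. Called genes are mostly to the left of 0 in the regulator, matrix and muscle connective tissue lists (10, 14 and 12 lower), and the receptor list is split with 4 higher and 3 lower.

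Across all 14610 genes, 22.9% were called in either direction, and markers of other cell types also differed between the populations, beside all of the results above. Myogenic markers were lower in anterior cells, with 10 of 11 tested genes called lower and a summed level of 10.5 to 19.5 CPM against 235 to 264 CPM. Myog and Pax7 had 0 counts in both anterior libraries, and Myod1 had 6 and 4 counts against 514 and 342. Cartilage markers were called lower in 5 of 8 tested genes (305 to 419 CPM against 1210 to 1540), surface ectoderm markers in 8 of 10 (10.1 to 10.4 against 51.5 to 162) and endothelial markers in 7 of 10 (11.4 to 14.3 against 40.5 to 48.2). Of the neural crest and Schwann markers, 2 of 5 tested were called lower (10.3 to 15.0 against 24.0 to 29.1 CPM), and Sox10 had 0 anterior counts. Dct went the other way without being called, with 35 and 23 anterior against 8 and 0 central counts (edgeR adjusted p-value 0.0713). Mitf was not called either and its libraries overlapped (log2 difference 0.64). Red cell markers were called higher in 8 of 8 tested genes, at 3300 to 8410 CPM against 8.28 to 11.1, and white cell markers in 4 of 8, at 19.3 to 22.9 against 8.43 to 9.03. The part of these cells in the results on the tendon and connective tissue genes was not tested. With the red cell genes removed the Scx difference was -3.31 again. That removal changes only the scaling of the libraries and not the Scx counts, so it cannot measure the part of these cells.

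General limb mesenchyme markers were abundant in both populations as a sum, but single genes differed. Their summed level was 3020 to 3030 CPM in anterior and 2620 to 2700 CPM in central cells, with 3 of 9 called higher and 1 lower. Msx1 was at 246 ± 10.5 against 25.7 ± 4.85 CPM (log2 difference 3.26 ± 0.12 SE, edgeR adjusted p-value 1.06e-06). Prrx2 was at 308 ± 15.9 against 82.0 ± 13.8 CPM (log2 difference 1.91 ± 0.11 SE, edgeR adjusted p-value 8.23e-06). Twist1 was also called higher, and Pdgfra was the 1 called lower, both described above. Prrx1, a homeobox factor of limb mesenchyme, was at 696 ± 28.8 and 661 ± 28.2 CPM and not called (log2 difference 0.07 ± 0.07 SE, edgeR adjusted p-value 0.473). The hindlimb factors Pitx1 and Tbx4 exceeded 200 CPM in all libraries.

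**Figure D5:**
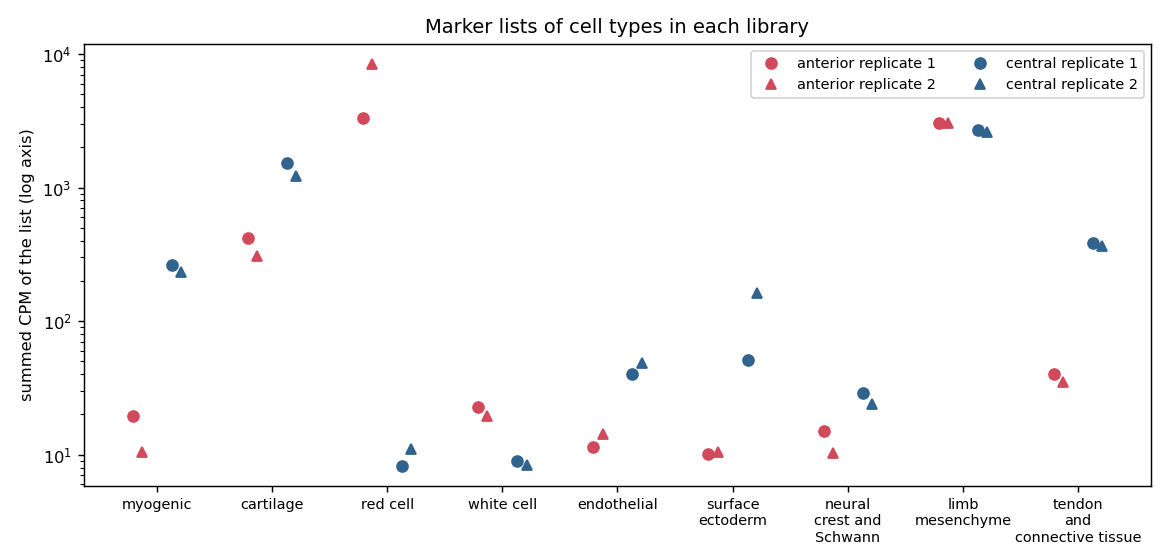
Summed CPM (log axis) of each marker list in each library, red for anterior and blue for central. The limb mesenchyme sums lie within 2620 to 3030 CPM in all libraries, the tendon and connective tissue sums at 34.9 and 40.2 against 367 and 385 CPM, and the red cell sums are far higher in the anterior libraries.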

How the data were processed

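The authors deposited 1 table of raw, unnormalized read counts per gene symbol. The submitters' processing notes name STAR 2.7.9a, HTSeq, DESeq2 3.16 and build mm10, with no role or order; annotation and strandedness are not given in the sources used here. Groups and replicate numbers came from the sample titles, and the 4 columns were matched to them by name. Of counts from 1 to 10, 72.8% to 75.6% were even, as when both mates of a pair are counted, so a fit on halved counts was run.

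The counts were analysed in R 4.3.3 with edgeR 4.0.16 (filterByExpr, TMM, quasi-likelihood F test, Benjamini-Hochberg over all genes tested, threshold 0.05, 2 residual degrees of freedom), tested on simulated data first. SE is the absolute log2 difference divided by the square root of F. Gene lengths and positions are from GENCODE M21 (GRCm38, the assembly of mm10). Lengths are the union of exons, with the longest transcript as an alternative. Members and lists were chosen with earlier results of these data known. Named genes were all members; per list, up to 4 called genes with the largest difference and at least 5 CPM and up to 2 uncalled genes with the highest level; 18 fixed genes; and the 5 most like Scx. Bop1, Tnxb, Tnr, Tnn, Col5a2, Tgfb3, Myog, Pax7, Myod1, Sox10, Dct, Mitf, Msx1, Prrx2 and Pitx1 were added after their values were seen. Alternatives were DESeq2 1.42.0 size factors and Wald test, library totals alone, other count filters, a replicate block, halved counts, removal of red cell genes, and leaving out each library. A planned comparison of protein sequences was not run. Some genes that met the naming rule are not reported here by name. No column was left unmatched.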

Additional observations from a re-analysis of the deposited data

How the results depend on the processing

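Apart from Kera, the members' log2 differences stayed close with the scaling, test, filter, block, halved counts or removal of red cell genes: Scx ranged from -3.34 to -3.31, Col12a1 from -5.75 to -5.71, Osr1 from -4.94 to -4.86 and Tnc from -2.11 to -2.05. The fitted value of Kera depends on the prior count, and its bound of 42.9-fold became 21.4-fold with a floor of 3 fragments, an alternative chosen after seeing the data. Leaving out 1 library moved the log2 differences more. Osr1 was then at -6.27 to -4.21, Dcn at -4.95 to -3.42, Tnc at -2.53 to -1.41 and Col14a1 at -2.34 to -1.38. Mkx ranged from -0.31 to 0.19, and was 0.0534 without anterior replicate 1 and 0.190 without central replicate 1. Of the named genes near 0, Itga5 became -0.00115 with library totals alone and ranged from -0.0202 to 0.0855 when 1 library was left out. With a mean count of at least 50, fewer proteoglycan genes were tested and 2 were called lower. Levels per length moved with the longest transcript in place of the union of exons. Central means were then 33.7 CPM per kilobase for Osr2, 6.56 for Col12a1 and 1.38 for Dcn. The replicate block called 3586 genes against 3351 without it. Any tie between an anterior and a central library of equal replicate number is unknown from the sources used here. The correlation of their deviations was 0.0463 across genes. As a value over all genes, it cannot decide whether particular genes varied together by replicate number.

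Leaving out 1 library, with the lone library assumed to vary like the other group, gave 2009 to 3697 genes called, with 809 to 1884 of them higher. Under these fits 1 to 2 tendon matrix genes were called higher, 0 to 1 tendon regulators higher, and 2 to 4 receptors higher. The lowest total was without anterior replicate 2. The cause was not tested. Col1a2, Nfatc4 and Tbx4, not called, were each called in 1 of 12 alternatives. Col14a1 and Dcn, whose anterior counts did not exceed 31, had an SE of 0.49 and 0.45.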
